A study of Homo sapiens with 18 samples.

Results

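OPM2 is a human multiple myeloma cell line, a culture of malignant plasma cells, and its control libraries were set against those of H929 and MM1S, another pair of myeloma lines. Bulk RNA sequencing gave 18 libraries in 9 groups of 2, from a study of these lines after deletion of IKZF1 or IKZF3 or after lenalidomide, and 8 of the libraries entered the comparison. The OPM2 controls were 2 groups given equal weight: cells with an empty vector, treated with 1 µg/mL doxycycline (OPM2 EV, 2 libraries), and cells that the labels call a control and name NT, for which they state neither a vector nor a dose (OPM2 NT, 2 libraries). The reference lines were H929 and MM1S cells with an empty vector and 1 µg/mL doxycycline (2 libraries each, equally weighted); all cells were cultured for 72 hours and sorted for live cells. Each line stands for 1 tumour, and no label says that replicate libraries came from separate cultures. The p-values below thus measure only the spread between libraries, estimated jointly over all 18 libraries.

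A gene counted as set apart when edgeR's quasi-likelihood test gave an adjusted p (Benjamini-Hochberg) under 0.05 with the same sign in all 4 contrasts of an OPM2 control with another line: OPM2 EV with H929, OPM2 EV with MM1S, OPM2 NT with H929 and OPM2 NT with MM1S. Of 14571 genes tested, 3429 (23.5%) were set apart, 1637 higher (11.2%) and 1792 lower (12.3%) in OPM2. In the weighted comparison as a whole, 35.0% of tested genes were called higher and 32.6% lower in the OPM2 controls, 67.6% in all. The single contrasts called 64.6% (OPM2 EV with H929), 67.5% (OPM2 EV with MM1S), 61.2% (OPM2 NT with H929) and 60.7% (OPM2 NT with MM1S), and H929 and MM1S differed from each other at 63.2% of genes, so a call in a single comparison was common. The 4 contrasts share libraries and are not independent of each other. A larger difference, over 2-fold in all 4 contrasts, was found for 779 genes higher (5.35%) and 1128 genes lower (7.74%). At the edge of the threshold, EMC10 (largest of its 4 adjusted p 0.0499) and SLC45A4 (0.0499) were just inside by edgeR's quasi-likelihood test, and ADCY1 (0.0502) and LPAR2 (0.0502) just outside.

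Total counts per library were between 11803995 and 24189568. The OPM2 EV libraries agreed least of all pairs: 1638 genes differed over 2-fold between them, against 258 to 980 genes within the other groups. Since the spread was estimated jointly over all groups, p-values of contrasts with OPM2 EV can be too small. Without OPM2 EV replicate 1, 2037 genes were set apart higher and 2168 lower, and list counts without this library are given below where they change. The plasma cell label was checked only on markers chosen from the lists. SDC1 (CD138), TNFRSF17 (BCMA), IRF4, PRDM1 and XBP1 were all abundant, the lowest value in an OPM2 control library being 279.6 CPM (the CPM unit is a read count scaled to library size) for PRDM1. The B cell marker MS4A1 had too few counts to be tested. Other listed genes went the other way in the authors' deposited log2 FPKM, a value per gene length. The plasma cell list member FCRL5 stood at -3.34 in OPM2 EV and -2.27 in OPM2 NT. The B cell list member TCF3 stood at 6.81 and 6.76. Of the markers of other cell types, the T and NK cell (7 tested), myeloid (6) and epithelial and stromal (4) lists had 0 members set apart higher. CD3E, GNLY and CD68 of these lists were set apart lower. The erythroid list (2 tested) had 1 set apart higher, HBB, at 18.6 and 10.3 CPM in OPM2 EV and 8.69 and 7.23 CPM in OPM2 NT, against 0.113 and 0.101 CPM in H929 and 1.29 and 1.19 CPM in MM1S. With so few tested, beside 11.2% of all genes set apart higher, these counts do not show absence. NCAM1, of the T and NK cell list, stood at 4.21 and 4.7 log2 FPKM in OPM2 EV and OPM2 NT, against 4.66 in H929.

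Myeloma arises in many patients from a translocation that places an oncogene under an immunoglobulin heavy chain enhancer. The t(4;14) translocation, which OPM2 and H929 are known to carry, activates FGFR3, a receptor tyrosine kinase, and NSD2, a histone H3 lysine methyltransferase. The t(14;16) translocation, known in MM1S, activates MAF, a basic leucine zipper transcription factor. These lesions are background knowledge and were not read from the counts.

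FGFR3 (chromosome 4, positions 1793293 to 1808867, GRCh38) stood at 2179 and 2168 CPM in OPM2 EV and 2316 and 2268 CPM in OPM2 NT, against 109.6 and 114 CPM in H929 and 0.529 and 0.726 CPM in MM1S. The 4 OPM2 libraries were close together and far above both other lines, and H929 in turn lay far above MM1S. The ratio of pooled counts was 20.0-fold against H929 (95% exact interval 19.4 to 20.6) and 3600-fold against MM1S (2330 to 5890), intervals that cover counting error only. NSD2, its neighbour on chromosome 4, had 1148 and 1520 CPM in OPM2 EV and 2068 and 2120 CPM in OPM2 NT, against 764 and 724 CPM in H929 and 254 and 256 CPM in MM1S. It was set apart higher with a log2 fold change of 1.94 (SE 0.0935, edgeR adjusted p = 1.26e-10), and the OPM2 NT libraries were above the OPM2 EV libraries.

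MAF was set apart lower: 59.5 and 69.5 CPM in OPM2 EV and 137 and 124 CPM in OPM2 NT, against 224 and 197 CPM in H929 and 489 and 516 CPM in MM1S. The OPM2 and reference libraries did not overlap, and MM1S was the highest. By pooled counts MAF was 2.12-fold lower than H929 (95% exact interval 2.05 to 2.19) and 5.07-fold lower than MM1S (4.93 to 5.22). Of 10 MAF-linked genes tested, 0 were set apart higher and 3 lower: ITGB7, an integrin chain, NUAK1, a kinase, and RND3, a small GTPase without a count in any OPM2 control library, at least 616-fold lower than in H929 and at least 107-fold lower than in MM1S.

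**Figure D1:**
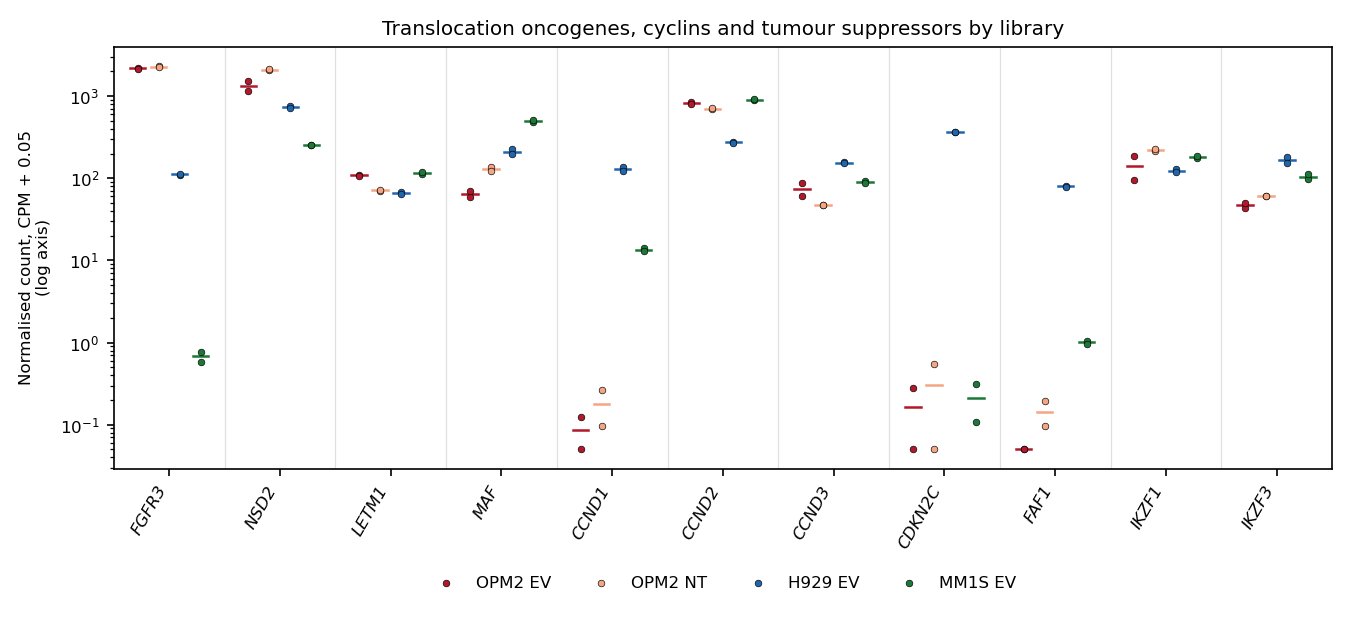
Normalised counts (CPM plus 0.05, log axis) of 11 genes in the 8 libraries, coloured by group; points are libraries and bars are group means (n = 2). FGFR3 lies at 2168 to 2316 CPM in all 4 OPM2 libraries, and CCND1 and FAF1 lie near 0 there.

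The D cyclins drive cells through G1, and the CDK inhibitors hold them there. CCND1 was close to absent from OPM2, with 1 and 0 counts in OPM2 EV and 1 and 3 counts in OPM2 NT, against 138 and 124 CPM in H929 and 13.98 and 12.99 CPM in MM1S. By pooled counts it was 1850-fold lower than H929 (95% exact interval 794 to 5710) and 193-fold lower than MM1S (81.9 to 596). CCND2 was abundant in OPM2 but not set apart, with group means of 829 CPM in OPM2 EV and 707 CPM in OPM2 NT, against 274 CPM in H929 and 906 CPM in MM1S. In the authors' deposited table of log2 FPKM, which corrects for gene length and holds 1 merged value per control group, CCND2 stood at 6.76 in OPM2 EV and 6.70 in OPM2 NT, above CCND3 at 4.44 and 3.93 and CCND1 at -6.28 and -5.01. CCND3 was not set apart either, with 73.5 CPM in OPM2 EV and 47.4 CPM in OPM2 NT, against 155 CPM in H929 and 89.3 CPM in MM1S.

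CDKN2C, which encodes the CDK inhibitor p18, had 0.114 CPM in OPM2 EV and 0.251 CPM in OPM2 NT, against 367 CPM in H929 and 0.161 CPM in MM1S, so it separated OPM2 from H929 alone. Its neighbour on chromosome 1, FAF1, a ubiquitin-binding adaptor, was set apart lower, with 0 and 0 CPM in OPM2 EV and 0.04596 and 0.143 CPM in OPM2 NT, against 79.8 and 78.99 CPM in H929 and 0.999 and 0.923 CPM in MM1S. CDKN2A, which encodes p16 and ARF, went the other way: 450.5 and 288 CPM in OPM2 EV and 268 and 241 CPM in OPM2 NT, against 70.95 and 77.02 CPM in H929 and 0.117 and 0.132 CPM in MM1S. CDKN2B beside it was also set apart higher, with 9.77 and 11.8 CPM in OPM2 EV and 17.3 and 14.8 CPM in OPM2 NT, against 3.74 and 4.41 CPM in H929 and 0.235 and 0.06596 CPM in MM1S. Of 26 myeloma tumour suppressor genes tested, 4 were set apart higher (CDKN2A, CDKN2B, WWOX, MAX) and 4 lower (FAF1, SP140, BIRC3, CDKN1A); without OPM2 EV replicate 1 there were 6 and 4.

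Signalling below FGF receptors runs through MAPK and is held back by feedback inhibitors such as Sprouty proteins and dual-specificity phosphatases. Of 23 genes of this list tested, 5 were set apart higher, FGFR3 with SPRY1, SPRY2, DUSP4 and the ETS factor ETV1, and 3 lower, FGFR1, FGFR2 and PHLDA1. DUSP4, a nuclear MAPK phosphatase, had 640.2 and 774 CPM in OPM2 EV and 1206 and 1211 CPM in OPM2 NT, against 141 and 146 CPM in H929 and 178 and 181 CPM in MM1S. FGFR1 had at most 0.228 CPM in an OPM2 control library, against 13.8 and 12.97 CPM in H929 and 9.93 and 8.97 CPM in MM1S. Per length, in the authors' deposited log2 FPKM, FGFR3 was the receptor with the highest value in OPM2 (8.61 in OPM2 EV and 9.03 in OPM2 NT), with FGFR4 at -0.06 and -0.90, FGFR1 at -4.94 and -7.70 and FGFR2 at -6.72 and -8.07. In the PI3K and AKT list, 2 of 31 members were set apart higher, the kinase AKT1 and the transcription factor FOXO1, and 7 lower, among them PIK3CG, PIK3IP1, INPP5D and IGF1 (3 and 7 without OPM2 EV replicate 1).

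Plasma cells secrete 1 antibody and carry 1 light chain class. IGLC3, a lambda constant gene, stood at 10700 and 6471 CPM in OPM2 EV and 6807 and 5721 CPM in OPM2 NT, against 1.93 and 10.3 CPM in H929 and 9.81 and 10.2 CPM in MM1S. IGLC7 and IGLC2 were also set apart higher, but the lambda constant genes are close copies of each other and the counting could split reads between them, so their separate levels are uncertain. IGKC, the kappa constant gene, was abundant in H929 alone: group means were 1.52 CPM in OPM2 EV and 6.24 CPM in OPM2 NT, against 8686 CPM in H929 and 2.41 CPM in MM1S. IGHG1, a heavy chain constant gene, had 28.6 CPM in OPM2 EV and 21.3 CPM in OPM2 NT, against 0 CPM in H929 and 219 CPM in MM1S. IGLL5, at the 5′ end of the lambda constant cluster, was set apart lower, with 78.7 and 36.7 CPM in OPM2 EV and 49.0 and 38.9 CPM in OPM2 NT, against 268 and 275 CPM in H929 and 1264 and 1259 CPM in MM1S.

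In the plasma cell list of 26 tested genes, 2 were set apart higher and 4 lower (1 and 7 without OPM2 EV replicate 1). SDC1, the syndecan used to identify plasma cells, had 1965 and 1548 CPM in OPM2 EV and 1726 and 1642 CPM in OPM2 NT, against 704 and 704 CPM in H929 and 737 and 734 CPM in MM1S, a pooled ratio of 2.42-fold against H929 (95% exact interval 2.38 to 2.45) and 2.31-fold against MM1S (2.28 to 2.34). SLAMF7, the target of elotuzumab, had 523 and 524 CPM in OPM2 EV and 594 and 580.4 CPM in OPM2 NT, against 222 and 227 CPM in H929 and 361 and 362 CPM in MM1S; in the IKZF1 knockout libraries its log2 fold change had the opposite sign, -0.81 (edgeR adjusted p = 0.00181). DERL3, EDEM1 and HSP90B1, which serve folding and disposal of proteins in the endoplasmic reticulum, and the adaptor LAX1 were set apart lower. CD38, the daratumumab target, was low in OPM2 and MM1S and was not set apart: 16.5 CPM in OPM2 EV and 11.8 CPM in OPM2 NT, against 90.2 CPM in H929 and 11.01 CPM in MM1S. TNFRSF17 lay between the other lines, at 509.6 CPM in OPM2 EV and 521 CPM in OPM2 NT, against 1354 CPM in H929 and 297 CPM in MM1S.

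The genes set furthest apart were ranked by the smallest of their 4 log2 fold changes. PDIA2, a protein disulfide isomerase best known from pancreas, led the higher genes with 63.1 and 33.96 CPM in OPM2 EV and 21.5 and 17.96 CPM in OPM2 NT, against 0 counts in all 4 libraries of H929 and MM1S. Against a floor of 3 counts over the group, this was at least 406-fold higher than H929 and at least 350.0-fold higher than MM1S. AKAP12, a scaffold for protein kinase A, had 80.5 and 166 CPM in OPM2 EV and 149 and 173 CPM in OPM2 NT, against 0 and 0.355 CPM in H929 and 0 and 0.06596 CPM in MM1S. The others of the leading 15 included the lambda gene IGLC3, transcription factors of other lineages (ELF3 of epithelia, NR2F1 of the nervous system, and WT1 of kidney and gonad), the secreted glycoprotein RELN, the mucin MUC13, the actin-binding protein DBN1, and PLD4, IGFBPL1, CACNG6, SHISAL1 and CAND2.

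RELN, which guides migrating neurons in the brain, varied widely within OPM2: 225 and 688 CPM in OPM2 EV and 1045 and 1074 CPM in OPM2 NT, against 1.47 and 3.29 CPM in H929 and 3.64 and 3.69 CPM in MM1S. Every OPM2 library was still far above every H929 and MM1S library. WT1 had 8.15 and 13.5 CPM in OPM2 EV and 15.7 and 16.3 CPM in OPM2 NT, against 0 and 0 CPM in H929 and 0.117 and 0.06596 CPM in MM1S. ELF3 had 102 and 67.8 CPM in OPM2 EV and 47.9 and 45.8 CPM in OPM2 NT, against 0 and 0.152 CPM in H929 and 0.0588 and 0.06596 CPM in MM1S.

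On the lower side, MAL2, a membrane trafficking protein of epithelia, had 0 counts in all 4 OPM2 control libraries, against 17.4 and 17.2 CPM in H929 and 30.5 and 35.4 CPM in MM1S. FAM213A, a redox protein, also had 0 counts in all 4, against 18.2 and 19.1 CPM in H929 and 11.8 and 10.9 CPM in MM1S. MAL2 was at least 412-fold lower than H929 and at least 779-fold lower than MM1S. EVI2B and EVI2A, a pair of membrane protein genes that lie within an intron of NF1 on the opposite strand, were both among the 15, and whether the counting used strand is not stated. EVI2B had 0.0685 CPM in OPM2 EV and 0.02298 CPM in OPM2 NT, against 183 CPM in H929 and 138 CPM in MM1S. SASH3, a lymphocyte adaptor, had 3 counts over the 4 OPM2 libraries, a pooled ratio of 1580-fold lower than H929 (95% exact interval 539 to 7650) and 6650-fold lower than MM1S (2270 to 32200). PPP1R16B, a phosphatase subunit, had 0.119 CPM in OPM2 EV and 0.5903 CPM in OPM2 NT, against 394 CPM in H929 and 443 CPM in MM1S. The atypical cadherin FAT1, SLFN13 (a tRNA-cleaving Schlafen protein), the ciliary protein EVC, the plexin PLXNA3, PHTF1, the receptor ADGRG5, the carbonyl reductase CBR1 and the serine pathway enzymes PSAT1 and PHGDH completed the group.

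**Figure D2:**
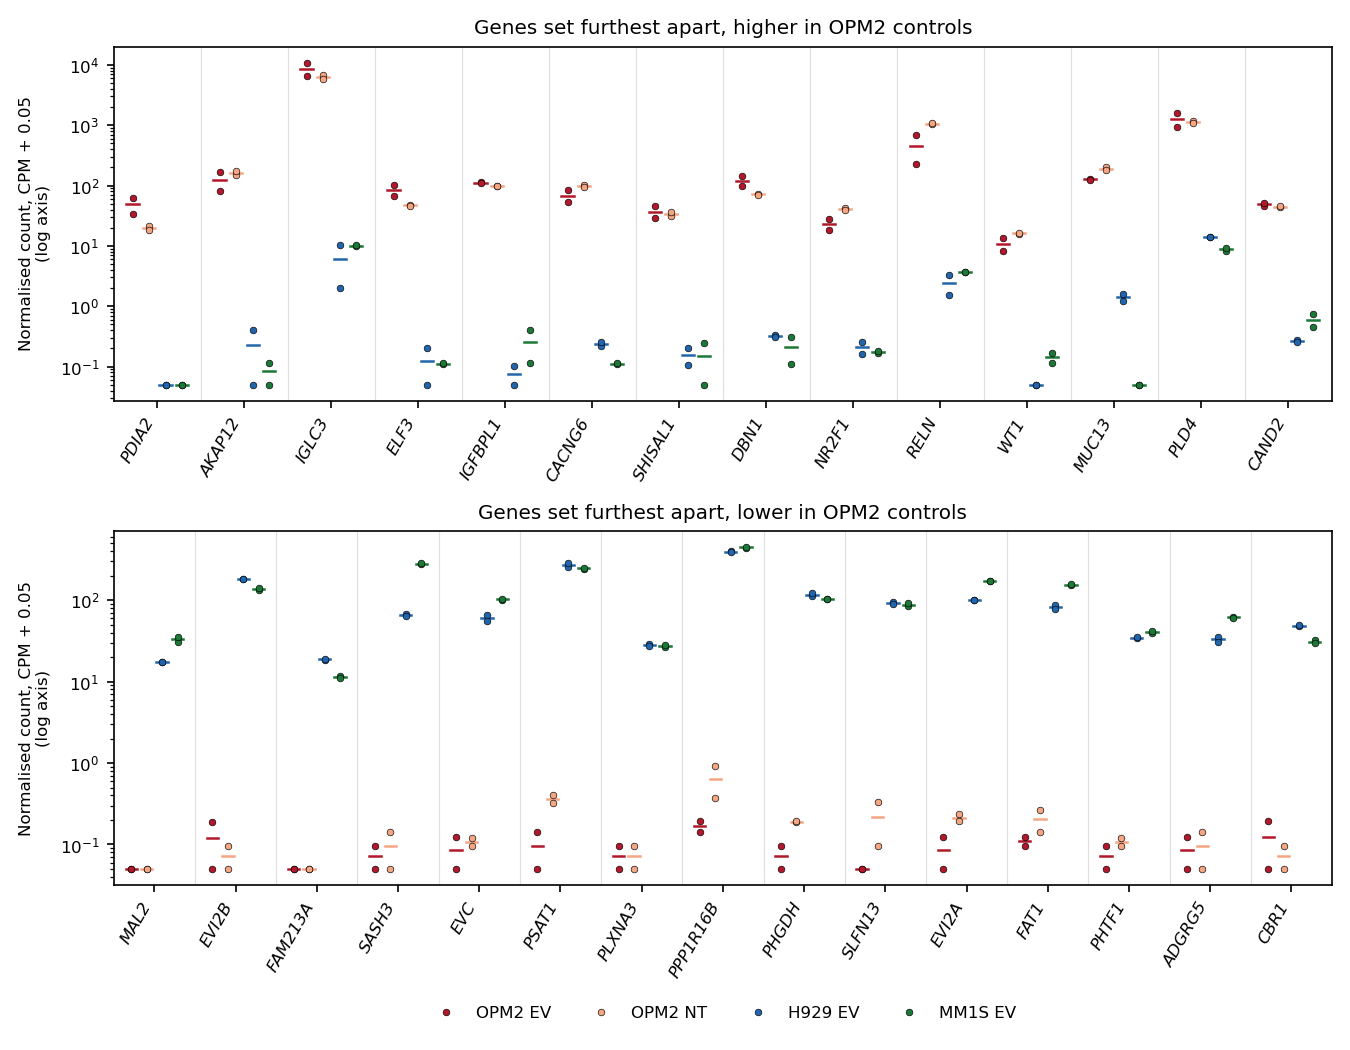
Normalised counts (CPM plus 0.05, log axis) in the 8 libraries of 14 genes set furthest apart on the higher side and 15 on the lower side; points are libraries and bars are group means (n = 2). In the upper panel both OPM2 groups lie above H929 and MM1S for each gene, and in the lower panel both lie below 1 CPM.

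Silent and exclusively expressed genes were counted with fixed cut-offs. In total 73 genes were below 0.5 CPM in both OPM2 groups and at 10 CPM or more in both H929 and MM1S, all of them protein-coding, while 18 genes showed the reverse. These counts are not alike, since the first asks for a single silent line and the reverse for a pair of silent lines. The same counts were not made for H929 or MM1S. The silent genes included CCND1, IRF7, ICAM1, CCL4, CCL5, DOCK2, APOBEC3G, GSTO1 and NT5E, and the 18 included the forkhead factor FOXP3, the lipase LPL and the protease ADAMTS1; these examples were chosen after their values were seen. The upstream sequence of the silent genes did not stand out in CG content: of 47 with a RefSeq promoter (GRCh38.p14, the 250 bases before the first listed start), 39 (83.0%) held 10 or more CG dinucleotides, against 82.8% of 11374 tested genes.

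Serine is made from a glycolytic intermediate by PHGDH, PSAT1 and PSPH in turn, and SHMT2 and MTHFD2 feed its carbon into folate metabolism. The first and second enzymes of this route were off in OPM2 while the others were present. PSAT1 had 0 and 0.0913 CPM in OPM2 EV and 0.276 and 0.358 CPM in OPM2 NT, against 254 and 282 CPM in H929 and 242 and 247 CPM in MM1S. PHGDH had 0 and 0.0456 CPM in OPM2 EV and 0.138 and 0.143 CPM in OPM2 NT, against 112 and 121 CPM in H929 and 103 and 102 CPM in MM1S. No OPM2 control library reached 1 CPM for either gene, far below every H929 and MM1S library. PSAT1 was 1470-fold lower than H929 (95% exact interval 861 to 2770) and 1340-fold lower than MM1S (783 to 2520). PHGDH was 1380-fold lower than H929 (635 to 3770) and 1220-fold lower than MM1S (559 to 3320). PHGDH spans positions 119711934 to 119744215 of chromosome 1 and PSAT1 positions 78297125 to 78330093 of chromosome 9.

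The 250 bases before each start are shown because these genes of different chromosomes were silent together; capitals mark CG dinucleotides, of which PHGDH has 11 and PSAT1 30 (RefSeq, GRCh38.p14, plus strand, chr1:119711684-119711933 and chr9:78296875-78297124).
PHGDH: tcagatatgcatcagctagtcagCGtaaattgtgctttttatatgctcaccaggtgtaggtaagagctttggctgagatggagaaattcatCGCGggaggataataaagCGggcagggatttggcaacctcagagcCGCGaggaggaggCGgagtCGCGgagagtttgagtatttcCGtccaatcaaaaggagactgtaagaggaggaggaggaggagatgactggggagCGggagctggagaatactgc
PSAT1: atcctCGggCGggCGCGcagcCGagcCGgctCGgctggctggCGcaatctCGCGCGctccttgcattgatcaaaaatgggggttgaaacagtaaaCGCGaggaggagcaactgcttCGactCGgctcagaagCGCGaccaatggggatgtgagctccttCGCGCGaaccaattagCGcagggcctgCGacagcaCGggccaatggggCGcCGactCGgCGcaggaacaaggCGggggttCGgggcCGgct
No sequence difference between OPM2 and the reference can be read from counts.

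PSPH, the last enzyme of serine synthesis, was set apart higher, with 88.97 and 85.3 CPM in OPM2 EV and 106 and 107 CPM in OPM2 NT, against 55.04 and 59.3 CPM in H929 and 41.8 and 39.9 CPM in MM1S. SHMT2 and MTHFD2 were also set apart higher, with log2 fold changes of 0.91 and 0.89. The wider list of unfolded protein and amino acid stress genes had 11 of 36 members set apart higher and 6 lower (13 and 8 without OPM2 EV replicate 1), with a median log2 fold change of 0.42 against 0.01 over all genes tested. ATF4, the transcription factor of the amino acid response, had 1309 and 812 CPM in OPM2 EV and 908 and 887 CPM in OPM2 NT, against 421 and 447 CPM in H929 and 526 and 509.9 CPM in MM1S. The genes CHAC1, TRIB3, DDIT3 and SESN2, the amino acid transporter subunits SLC7A5 and SLC3A2, and CEBPB were set apart higher. Their log2 fold changes lay between 1.14 (TRIB3) and 1.99 (SESN2). ASNS, the asparagine synthetase, was not set apart (268 CPM in OPM2 EV and 309 CPM in OPM2 NT, against 255 CPM in H929 and 149 CPM in MM1S). The members set apart lower besides PSAT1 and PHGDH were the lipoprotein receptor VLDLR and the endoplasmic reticulum chaperone and degradation genes HSPA5, DNAJB9 and EDEM1.

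**Figure D3:**
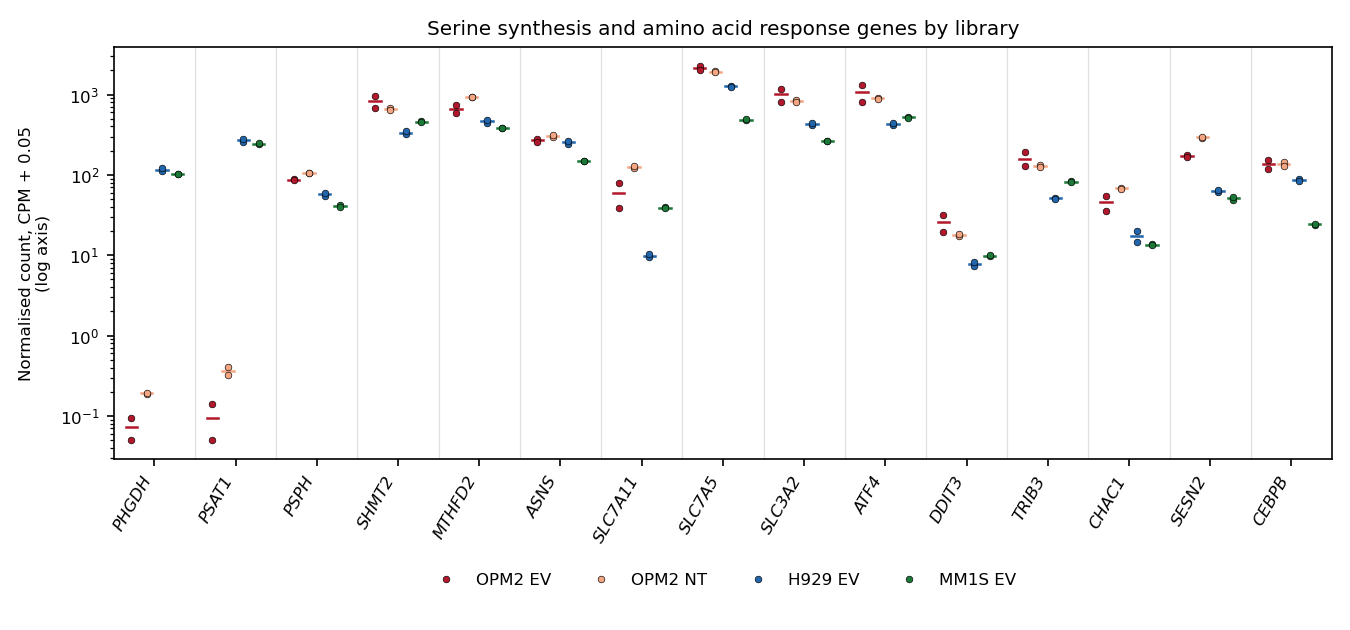
Normalised counts (CPM plus 0.05, log axis) of serine synthesis, one-carbon and amino acid response genes in the 8 libraries; points are libraries and bars are group means (n = 2). PHGDH and PSAT1 lie below 1 CPM in the OPM2 libraries and far higher in H929 and MM1S, while PSPH, ATF4 and SESN2 lie higher in OPM2.

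Type I interferon induces antiviral genes through a complex that includes STAT2 and IRF9 and binds an element in their promoters. Of 57 interferon-stimulated genes tested, none was set apart higher and 18 (31.6%) were lower in OPM2 (17 without OPM2 EV replicate 1), with a median log2 fold change of -2.33; 2 were called higher and 41 lower in the weighted comparison. HERC5, the ligase that attaches ISG15 to proteins, had 0 and 0 CPM in OPM2 EV and 0.04596 and 0.286 CPM in OPM2 NT, against 40.5 and 42.4 CPM in H929 and 78.1 and 74.7 CPM in MM1S. IRF7, which amplifies interferon production, had 0.0735 and 0 CPM in OPM2 EV and 0.414 and 0.573 CPM in OPM2 NT, against 35.8 and 37.7 CPM in H929 and 28.4 and 31.3 CPM in MM1S. OAS2, a sensor of double-stranded RNA, had 0.661 and 1.73 CPM in OPM2 EV and 3.17 and 3.58 CPM in OPM2 NT, against 146 and 148 CPM in H929 and 35.4 and 36.3 CPM in MM1S. The modifier ISG15 and its conjugating enzyme UBE2L6, the GTPase MX1, OAS1, the RNA helicases IFIH1 and DHX58, ISG20, PARP12 and PARP14 were also set apart lower, as were SP100, SP110, IFI35, IFIT3, ZBP1 and LAMP3. STAT2 (54.97 CPM in OPM2 EV and 92.01 CPM in OPM2 NT, against 32.3 CPM in H929 and 85.3 CPM in MM1S) and IRF9 (11.2 CPM in OPM2 EV and 10.1 CPM in OPM2 NT, against 29.9 CPM in H929 and 8.73 CPM in MM1S) were not set apart.

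The motif GAAANNGAAA, the core of the interferon-stimulated response element, was searched on both strands of the 250 upstream bases of the first listed start. It was present in 7 of 13 members set apart lower with a RefSeq promoter (53.8%) and in 16 of 31 other tested members (51.6%), against 2.50% of 11374 tested genes. ISG15 and HERC5 are shown as examples with capitals at every match, overlapping ones included (GRCh38.p14, plus strand, chr1:1013247-1013496 and chr4:88456869-88457118).
ISG15: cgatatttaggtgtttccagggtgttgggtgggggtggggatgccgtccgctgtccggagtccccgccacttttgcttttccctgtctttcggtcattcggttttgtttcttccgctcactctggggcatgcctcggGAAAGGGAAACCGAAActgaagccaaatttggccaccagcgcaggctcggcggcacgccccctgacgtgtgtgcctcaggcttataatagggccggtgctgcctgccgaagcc
HERC5: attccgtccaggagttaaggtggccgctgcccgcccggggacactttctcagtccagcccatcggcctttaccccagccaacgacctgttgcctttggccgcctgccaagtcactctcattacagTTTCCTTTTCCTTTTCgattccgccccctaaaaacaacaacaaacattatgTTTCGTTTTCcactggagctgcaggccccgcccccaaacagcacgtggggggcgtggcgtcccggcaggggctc
HERC5 holds 3 matches and ISG15 2, and in both promoters a pair overlaps by 4 bases; a match describes these letters and is no evidence of binding in OPM2.

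Of 22 MHC class I genes tested, 2 were set apart higher, among them NLRC5, a transactivator of class I genes, and 7 lower (10 without OPM2 EV replicate 1), among them the aminopeptidases ERAP2 and ERAP1, the immunoproteasome subunit PSMB9, the peptide loading genes TAPBP and TAP1, and MICA and MICB. NLRC5 had 40.8 and 36.5 CPM in OPM2 EV and 31.9 and 30.4 CPM in OPM2 NT, against 9.74 and 9.73 CPM in H929 and 6.23 and 6.73 CPM in MM1S. ERAP2 had 1.69 and 2.28 CPM in OPM2 EV and 1.43 and 1.65 CPM in OPM2 NT, against 59.5 and 61.4 CPM in H929 and 97.5 and 99.9 CPM in MM1S. Of 15 class II genes tested, 1 was set apart higher, RFXAP, a subunit of a factor that binds class II promoters, and 1 lower, CTSS (6.67% each, against 11.2% and 12.3% over all genes). CD74, the class II invariant chain, separated MM1S from the others (0.156 CPM in OPM2 EV and 0.534 CPM in OPM2 NT, against 0.310 CPM in H929 and 1338 CPM in MM1S), while CTSS, the protease that trims it, was 84.7-fold below H929 (95% exact interval 60.9 to 121) and 185-fold below MM1S (133 to 264). Of 23 ligands of NK cells and checkpoint receptors, PVR was the 1 set apart higher and 7 were lower, among them CD86, ICOSLG, TNFSF9, CD58 and CD47.

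Genes of the leucocyte cytoskeleton, NF-kB and B cell lists had more members set apart lower than higher. Of 23 leucocyte actin regulators tested, 1 was set apart higher, the formin FMNL1, and 10 (43.5%) lower, 13 without OPM2 EV replicate 1. DOCK2, which activates the GTPase RAC in lymphocytes, had 0 and 0 CPM in OPM2 EV and 0.4596 and 0.143 CPM in OPM2 NT, against 117 and 118 CPM in H929 and 181 and 182 CPM in MM1S. LSP1, an F-actin-binding protein, had 4.48 and 2.83 CPM in OPM2 EV and 7.998 and 6.298 CPM in OPM2 NT, against 732 and 722 CPM in H929 and 146 and 136 CPM in MM1S. The exchange factors VAV1, DOCK8 and CYTH4, the bundling protein LCP1, WIPF1, ARHGAP15, NCKAP1L and TMSB4X completed the lower members.

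Of 24 NF-kB genes tested, 10 (41.7%) were set apart lower, 9 without OPM2 EV replicate 1, and 1 higher, the subunit RELA with a log2 fold change of 0.56. The lower members held the subunits NFKB2 and RELB, the inhibitors TNIP1 and BIRC3, and the targets ICAM1, CD40, BCL2A1, TRAF1, IL2RG and CFLAR. NFKB2 had 54.6 and 31.8 CPM in OPM2 EV and 42.7 and 39.6 CPM in OPM2 NT, against 96.8 and 106 CPM in H929 and 253 and 258 CPM in MM1S. BIRC3 had 0.367 and 0.593 CPM in OPM2 EV and 1.43 and 1.002 CPM in OPM2 NT, against 6.62 and 6.69 CPM in H929 and 134 and 135 CPM in MM1S.

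Of 23 B cell genes tested, 0 were set apart higher and 8 lower (9 without OPM2 EV replicate 1). SPI1 (PU.1), a transcription factor of B and myeloid cells, had 0 counts in all 4 OPM2 control libraries, against 4.19 and 3.75 CPM in H929 (at least 94.0-fold lower in OPM2) and 23.8 and 25.4 CPM in MM1S (at least 583-fold lower). BTK, the B cell receptor kinase, FCRLA, FCER2, CD37, CD53, CD52 and PTPRC (CD45) were also set apart lower. CD53, a tetraspanin, kept a measurable level, 6.098 and 6.12 CPM in OPM2 EV and 7.31 and 6.01 CPM in OPM2 NT, against 136 and 127 CPM in H929 and 158 and 156 CPM in MM1S.

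Adhesion molecules tie myeloma cells to bone marrow stroma. Of 33 tested, 4 were set apart higher (6 without OPM2 EV replicate 1), namely ITGA2, ITGB5, CDH2 and CD151, and 11 (33.3%) lower. CD44, the hyaluronan receptor, had 33.1 and 39.3 CPM in OPM2 EV and 40.9 and 42.8 CPM in OPM2 NT, against 1130 and 1095 CPM in H929 and 1115 and 1137 CPM in MM1S. It was 28.3-fold lower than H929 (95% exact interval 27.2 to 29.4) and 28.6-fold lower than MM1S (27.6 to 29.8). ITGAL, the LFA-1 chain, and ICAM1, its ligand, were both lower: ITGAL had 10.4 and 9.95 CPM in OPM2 EV and 15.8 and 19.4 CPM in OPM2 NT, against 1136 and 1079 CPM in H929 and 122 and 126 CPM in MM1S. ICAM1 had at most 0.138 CPM in an OPM2 control library, 502-fold below H929 (215 to 1550) and 167-fold below MM1S (71.1 to 518).

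Of 13 chemokine genes tested, 5 were set apart lower and 1 higher. CCL3, a chemokine that stimulates osteoclasts, had 80.1 and 50.9 CPM in OPM2 EV and 61.7 and 51.95 CPM in OPM2 NT, against 1237 and 1201 CPM in H929 and 1547 and 1585 CPM in MM1S. CCL4, CCL5, CXCL16 and the receptor CXCR3 were lower as well; CCL3 and CCL4 have near-identical neighbouring copies that could share their reads. CXCR4, the homing receptor for bone marrow, was the member set apart higher, with 79.1 and 81.4 CPM in OPM2 EV and 128 and 124 CPM in OPM2 NT, against 4.93 and 4.46 CPM in H929 and 46.01 and 44.9 CPM in MM1S. Among 31 cytokine receptors and ligands, 3 were set apart higher (LIFR, IL4R, IL27RA) and 7 lower, with CSF2RB, the common beta chain of the receptors for interleukins and GM-CSF, 210.0-fold below H929 (95% exact interval 157 to 286) and 205-fold below MM1S (154 to 280.0).

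Cancer-testis antigens are germline proteins that tumours can re-express. Of 24 tested, 7 (29.2%) were set apart higher and 0 lower (8 and 0 without OPM2 EV replicate 1). CTAG2 had 534 and 284 CPM in OPM2 EV and 239.8 and 223 CPM in OPM2 NT, against 14.9 and 15.3 CPM in H929 and 0 and 0.06596 CPM in MM1S. PRAME, MAGEA6, MAGEA12, CSAG1, CTAG1B and GAGE2A were the other members, and no MM1S library was above 0.132 CPM for any of them but PRAME. Most belong to families of near-identical X-linked copies, so their separate levels are uncertain. The 29.2% stand beside 11.2% over all genes. With MM1S near 0 for most of these members, being set apart turned largely on H929, which expressed genes of this list too. In the authors' log2 FPKM, MAGEA6 stood at 6.4 in OPM2 EV and 6.07 in OPM2 NT, against 5.65 in H929. MAGEA4, which was not set apart, stood at 6.12 and 5.99, against 7.76 in H929.

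Of 45 cell cycle genes, 4 were set apart higher (FOXM1, PLK1, CKS1B, MYBL2) and 1 lower (E2F1), and without OPM2 EV replicate 1 there were 7 and 3. Of 44 MYC targets, 4 were higher (SLC3A2, SLC7A5, PAICS, SHMT2) and 0 lower (6 and 0 without OPM2 EV replicate 1); the 9.09% set apart higher stand beside 11.2% over all genes. MYC itself was not set apart (562 CPM in OPM2 EV and 536 CPM in OPM2 NT, against 481 CPM in H929 and 293 CPM in MM1S). Of 34 glycolysis and hypoxia genes, 5 were higher, among them GAPDH, TPI1 and LDHB, and 7 lower, among them the hexokinase HK1 and the enolase ENO2 (5 and 8 without OPM2 EV replicate 1). LDHB, a lactate dehydrogenase subunit, had 2281 and 1821 CPM in OPM2 EV and 1448 and 1381 CPM in OPM2 NT, against 344 and 412 CPM in H929 and 817 and 748 CPM in MM1S. Of 26 glutathione and redox enzymes, 5 were higher, including NQO1 and GCLM, and 4 lower: GSTM4, GSTO1, GPX1 and GSTM2 (6 and 5 without OPM2 EV replicate 1). GSTO1 had 0.0735 and 0.3195 CPM in OPM2 EV and 0.276 and 0.215 CPM in OPM2 NT, against 76.3 and 84.7 CPM in H929 and 94.95 and 89.7 CPM in MM1S.

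**Figure D4:**
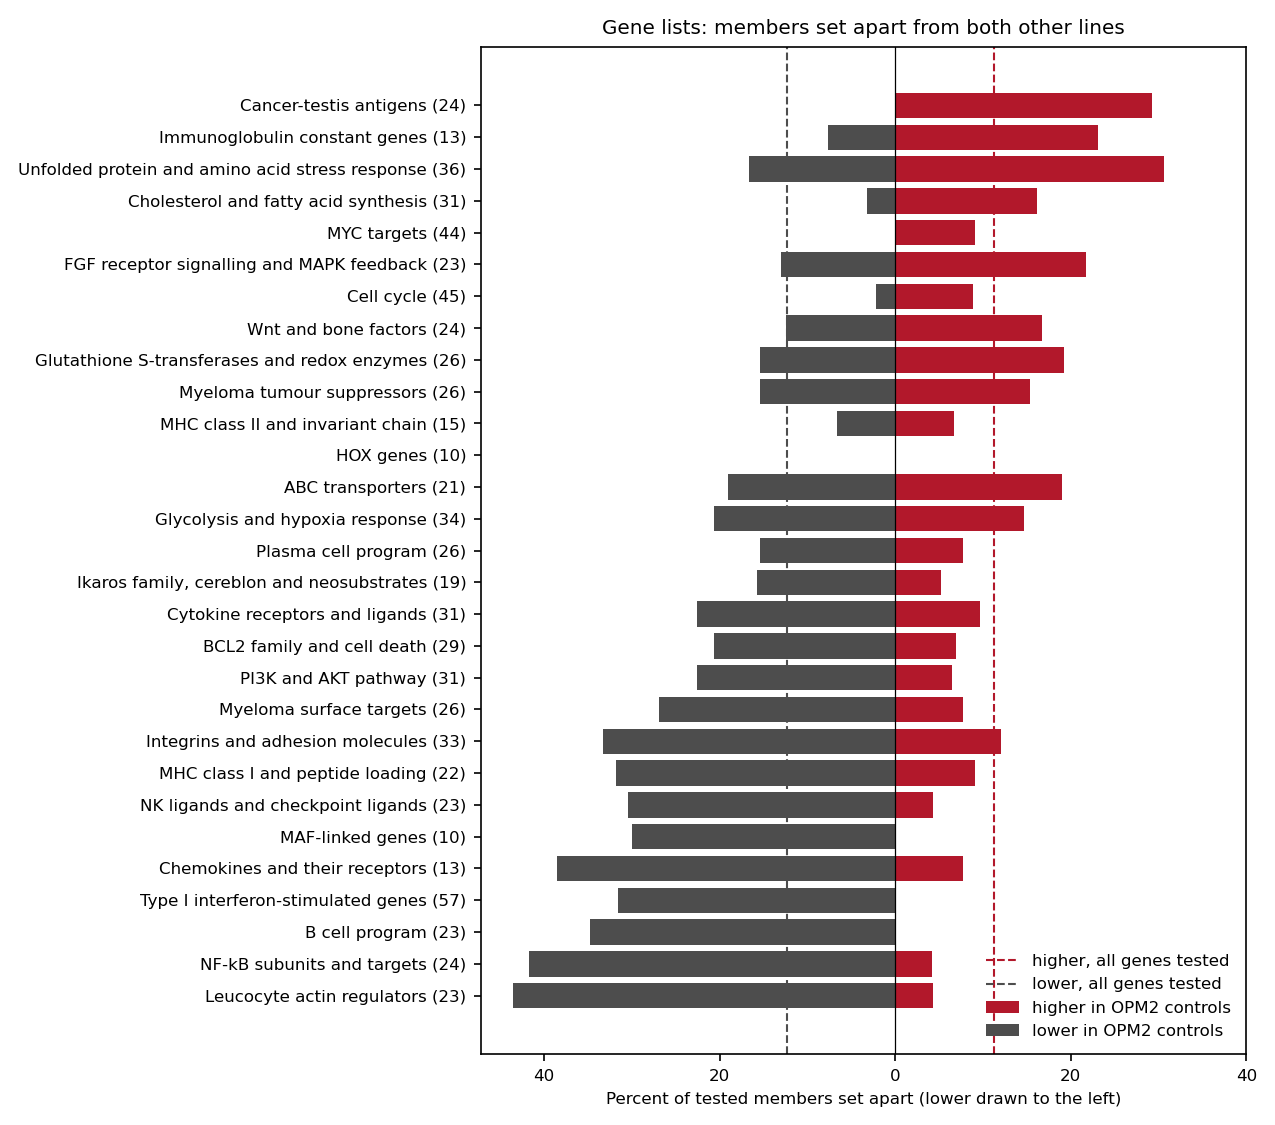
Percent of tested members set apart higher (red, right) and lower (grey, left) in OPM2 controls for 29 gene lists with at least 10 tested members (number in brackets); dashed lines mark 11.2% and 12.3%, the shares over all genes tested. Leucocyte actin regulators (43.5%) and NF-kB genes (41.7%) have the longest bars to the left, and stress response genes (30.6%) and cancer-testis antigens (29.2%) the longest to the right.

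Lenalidomide acts through cereblon, which then degrades the transcription factors Ikaros (IKZF1) and Aiolos (IKZF3). Of 19 genes of this list tested, 1 was set apart higher, ZNF692, and 3 lower (2 and 3 without OPM2 EV replicate 1). IKZF3 had 44.01 and 50.3 CPM in OPM2 EV and 61.1 and 60.5 CPM in OPM2 NT, against 183 and 152 CPM in H929 and 97.7 and 112 CPM in MM1S, and no OPM2 library reached the level of any other library. IKZF1 was not set apart; it had 94.3 and 188 CPM in OPM2 EV and 212 and 225 CPM in OPM2 NT, against 128 and 120.1 CPM in H929 and 179 and 185 CPM in MM1S. CRBN was lower in the weighted comparison (log2 fold change -0.56, SE 0.126, edgeR adjusted p = 0.00119) without being set apart. GLUL, the glutamine synthetase, itself a substrate of cereblon, had 0 counts in all 4 OPM2 control libraries, against 7.19 and 7.14 CPM in H929 and 104 and 99.8 CPM in MM1S.

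Genes set apart were unevenly spread over the chromosomes. On chromosome 13, 70 of 260 tested genes (26.9%) were set apart higher and 13 (5.0%) lower, and on chromosome 5, 41 of 657 (6.24%) were higher and 179 (27.2%) lower. The median log2 fold change of all tested genes of chromosome 5 was -0.83 against H929 and -0.43 against MM1S; for chromosome 13 the medians were 0.77 and 0.41. The chromosome 13 median against MM1S was not positive throughout. It was 0.94 from 40 to 60 Mb, but -0.49 from 80 to 100 Mb and -0.53 from 100 to 120 Mb. Against H929 the medians of the latter stretches were 0.78 and 0.87, and 20.0% and 19.1% of their genes were set apart higher. In windows of 20 Mb, the genes of chromosome 5 had medians between -0.09 and 0.31 in the first 60 Mb. From 100 to 180 Mb, the medians lay between -1.21 and -1.05 against H929 and between -0.94 and -0.58 against MM1S, and 35.3% to 44.0% of genes were set apart lower. IRF1, a transcription factor gene in this stretch, had group means of 12.8 CPM in OPM2 EV and 7.75 CPM in OPM2 NT, against 76.3 CPM in H929 and 79.8 CPM in MM1S. RAD50, a DNA repair gene close to it, had 26.7 CPM in OPM2 EV and 36.2 CPM in OPM2 NT, against 125 CPM in H929 and 86.1 CPM in MM1S. DNA copy number was not measured here.

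**Figure D5:**
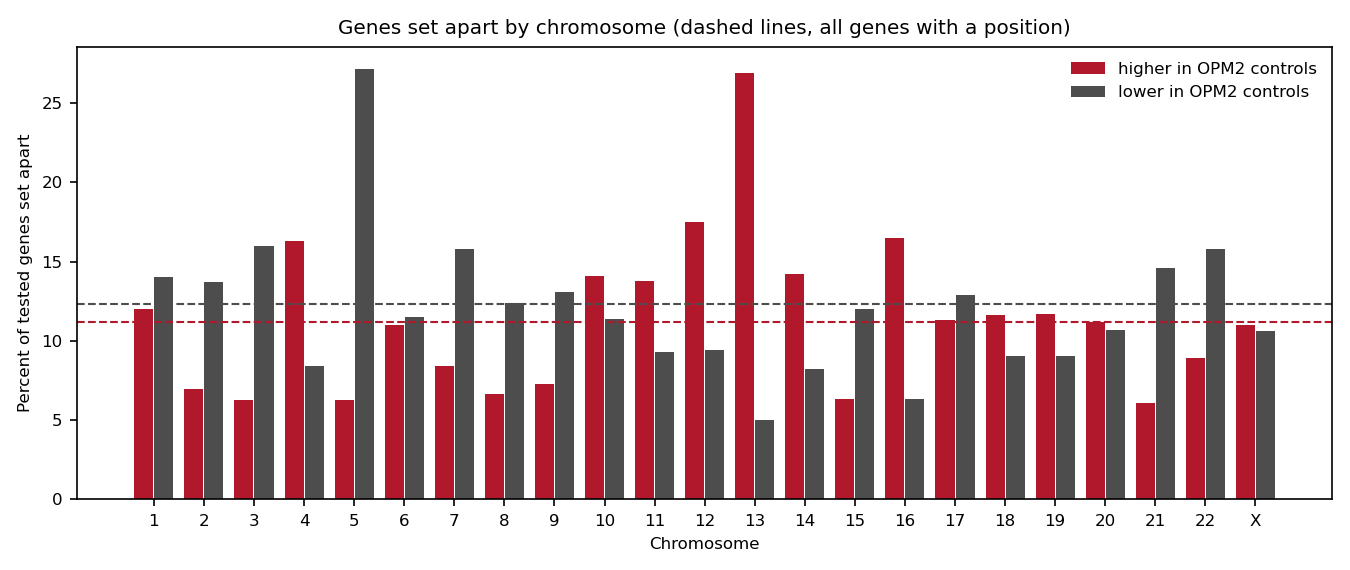
Percent of tested genes of each chromosome set apart higher (red) and lower (grey) in OPM2 controls, with dashed lines at the shares over all genes with a position (11.2% and 12.3%). Chromosome 5 stands out with 27.2% lower and chromosome 13 with 26.9% higher.

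Some neighbours were set apart together. The longest of 20 runs of 5 or more adjacent tested genes held 10 genes on chromosome 22 (positions 38861422 to 39244982), all lower: CBX6, the 7 tested APOBEC3 genes, CBX7 and PDGFB. The APOBEC3 proteins are cytidine deaminases that restrict retroviruses and retrotransposons. APOBEC3G had group means of 0 CPM in OPM2 EV and 0.166 CPM in OPM2 NT, against 62.9 CPM in H929 and 81.9 CPM in MM1S, and APOBEC3B had 7.54 CPM in OPM2 EV and 9.82 CPM in OPM2 NT, against 119 CPM in H929 and 81.2 CPM in MM1S. APOBEC3C was the least reduced, with 29.5 CPM in OPM2 EV and 43.9 CPM in OPM2 NT, against 124 CPM in H929 and 122 CPM in MM1S; these genes share sequence and could share reads. The second longest run held 7 genes of chromosome 12 (57434784 to 57531545), all higher: INHBC, INHBE, GLI1, ARHGAP9, MARS, DDIT3 and MBD6. INHBE, an activin subunit, had 106 CPM in OPM2 EV and 151 CPM in OPM2 NT, against 9.003 CPM in H929 and 0.216 CPM in MM1S. A run of 5 on chromosome 2 held the interferon-inducible SP110, SP140, SP140L and SP100 with SLC16A14, all lower. The runs on chromosomes 22 and 12 were picked by length and the run on chromosome 2 for its interferon-inducible members, all after the data were seen; runs of 6 genes are not described.

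The IKZF1 knockout libraries of the same lines did not enter the 4 contrasts, though they share the fit's estimate of spread. The IKZF1 transcript itself stood at 213 and 225 CPM in OPM2, 124 and 188 CPM in H929 and 312 and 333 CPM in MM1S knockout libraries. A count of transcripts does not show whether the protein was lost, so these libraries are knockouts by label. There, OPM2 was set against the equally weighted mean of H929 and MM1S in the same fit, and 31.2% of tested genes were called higher and 29.0% lower. Of the 1637 genes set apart higher in controls, 1525 (93.2%) were called higher and 2 lower, and of the 1792 set apart lower, 1658 (92.5%) were called lower and 6 higher. The median log2 fold change was 1.34 in knockout cells and 1.54 in controls for the higher genes, and -2.05 and -2.2 for the lower genes. In knockout cells the log2 fold change was 6.53 for FGFR3, 0.93 for SDC1, -5.29 for CD44 and -6.25 for ITGAL, each in the same direction as in controls. CCND2 had a log2 fold change of 4.82 in the knockout libraries (edgeR adjusted p = 5.86e-13), against 0.62 in controls; this difference was not tested. These libraries come from the same lines, so they add libraries and no new tumour.

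Within OPM2, the 2 control groups differed from each other at 35.3% of tested genes. Among the set-apart genes, 479 of 1637 higher ones (29.3%) and 331 of 1792 lower ones (18.5%) were also called between OPM2 EV and OPM2 NT. The size was mostly small beside the difference between lines: the median absolute log2 difference between OPM2 EV and OPM2 NT was 0.32 for higher and 0.37 for lower genes, while the median of the smallest of the 4 log2 fold changes was 0.94 and 1.49. It exceeded that smallest fold change for 184 higher genes (11.2%) and 156 lower genes (8.71%). The contrast of the 2 OPM2 groups holds doxycycline, vector and library spread together, which cannot be told apart.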

How the data were processed

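RNA from sorted live cells was sequenced from TruSeq libraries, per the labels' protocols. The authors deposited raw read counts per gene (Subread and featureCounts with GRCh38, per the submitters' processing notes; versions and the strand setting are not given in the sources used here) and a second table for 16352 genes. The authors deposited that table as log2 FPKM values, and its 4 merged control columns were used for levels per length only. Genes were filtered by expression within groups and scaled by TMM, and edgeR 4.0.16 (limma 3.58.1, R 4.3.3) fitted robust quasi-likelihood models to all 18 libraries in 9 groups, with 9 residual degrees of freedom; p-values were adjusted over all 14571 of 28395 genes tested, and 385 rows had no symbol. The spread of every group was thus shared. Contrasts of OPM2 EV, OPM2 NT, H929 and MM1S were tested as described with the results. Fold changes against groups with few counts are given as ratios of pooled counts with exact 95% intervals, or as bounds against a floor of 3 counts over the group. The steps were tested on simulated data. Gene positions and promoters come from RefSeq (GRCh38.p14).

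The members and the 36 gene lists were chosen with earlier results of these data known. Named genes are 18 fixed myeloma genes, the 15 highest and 15 lowest set-apart genes with at least 10 CPM in both OPM2 groups or both other lines, ranked by the smallest of 4 absolute log2 fold changes (uncharacterised loci passed over), and up to 4 set-apart members per list by the same rank; some of these genes are not reported here, and further names were chosen after their values were seen. DESeq2 1.42.0 (Wald test) and limma-voom served as alternatives, with other scalings, filters, a replicate block, single control groups and each library left out. The knockout columns carry no replicate number that the labels share and were used as unnumbered replicates.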

Additional observations from a re-analysis of the deposited data

Results flagged for a closer look

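Among 44 of the named genes, 10 differed between OPM2 EV and OPM2 NT by edgeR's quasi-likelihood test at an adjusted p below 0.05, against 35.3% of the 14571 genes tested, so the share among the named genes was not above that over all genes. These are log2 differences, OPM2 EV minus OPM2 NT, and the parts of doxycycline, vector and library spread in them were not tested. The lower values in OPM2 EV were those of PPP1R16B (-2.18), RELN (-1.21), MAF (-1.02), NR2F1 (-0.79), NSD2 (-0.65), IKZF1 (-0.63) and IRF4 (-0.53). PPP1R16B was below 1 CPM in both groups, 0.119 CPM in OPM2 EV and 0.59 CPM in OPM2 NT. The higher values in OPM2 EV were those of CCND3 (0.63), DBN1 (0.75) and ELF3 (0.85). With 2 libraries per group, no sample could be tested as an outlier.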

How the results depend on the processing

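The counts of genes called and set apart stayed within 1.5 times the reported ones under other scalings, filters, DESeq2, limma-voom, the 8 libraries alone, single control groups and an adjusted p below 0.01. A test against a 1.5-fold change called 2585 genes higher and 2782 lower and set 807 higher and 1133 lower apart; asking for over 2-fold in all 4 contrasts left 779 and 1128. With 1 library left out at a time, 4454 to 5461 genes were called higher, 4390 to 5357 lower, 1288 to 2037 set apart higher and 1458 to 2168 lower. The differences between replicates 1 and 2 were at most weakly correlated between groups (correlations -0.0762 to 0.123). With a single difference per group, this cannot show whether same-numbered libraries were paired. With a replicate block, 5064 genes were called higher, 4775 lower, 1631 set apart higher and 1784 lower. DESeq2 size factors moved the split of calls to 4892 higher and 4939 lower, against 5101 and 4749.

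Log2 fold changes reversed for IKZF1, which was not called in the weighted comparison, and for CCND2, CDKN2C, CD38 and TNFRSF17, which were called. The cause of the IKZF1 reversals was not tested. IKZF1 turned to -0.0859 for OPM2 EV alone, -0.0478 against MM1S alone and ranged from -0.0663 to 0.414 with 1 library left out. It was called higher for OPM2 NT alone (0.542, edgeR adjusted p = 0.028) and against H929 alone (0.504, edgeR adjusted p = 0.0432). Against MM1S alone, CCND2 was -0.243, CDKN2C 0.0955, CD38 0.343 and TNFRSF17 0.795. For CCND2, CD38 and TNFRSF17 the OPM2 group means lay between those of H929 and MM1S. CDKN2C was near 0 in both OPM2 and MM1S, so for these genes the sign depended on the line compared. With 1 library left out, CDKN2C ranged from -7.89 to -4.82. TNFRSF17 was not called for OPM2 NT alone (-0.283, edgeR adjusted p = 0.058). Neither CCND2 nor TNFRSF17 was called by the test against a 1.5-fold change. Genes near 0 counts in a line are limited by depth, as the intervals show.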
